A study of Schizosaccharomyces pombe with 22 samples.

Results

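The large subunit ribosomal protein genes of the fission yeast Schizosaccharomyces pombe were followed across a set of spotted arrays made for a study of Pst3, a homologue of the corepressor protein Sin3, and nucleolar integrity. Members were all probes whose name starts with rpl or rpp followed by a number, with the prefix of intergenic probes removed and names of mitochondrial (mrpl) and ribosome-like (rlp) proteins left out. This gave 87 probe names in 48 families by name, of which 15 had 1 probe, 27 had 2 and 6 had 3. A family was taken from the gene symbol, or from the probe name where no gene was matched. Unmatched names may therefore belong to another family. Of these 87 names, 75 were measured on all 10 RNA arrays, which carry 4716 names in common, 82 were measured among the 4940 intergenic regions, and 78 were measured on the open reading frame (ORF) probes of the chromatin arrays.

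The RNA arrays held total RNA of a strain labelled pst3nmt OFF (2 arrays, labelled with Cy5 on 1 and Cy3 on the other) and of wild type (8 arrays). The label names the profile as that of repressed pst3nmt; nmt is the name of a thiamine-repressible promoter, and the labels give no repression time. The chromatin arrays held Pst3-GFP immunoprecipitate against wild-type input on intergenic probes (2 arrays with the dyes swapped), anti-H3 immunoprecipitate against input in wild type, and input of hst2D and hst4D strains against H3 beads (1 array a strain for each of the intergenic and ORF probe sets), and a slide of Pst3-GFP against beads (both probe sets). The names hst2 and hst4 belong to genes of NAD-dependent deacetylases. In 3 of the 4 hst samples the H3 channel is named as wild-type beads in the labels. No source states that the arrays of a group had cultures of their own, and p-values therefore cover array-to-array spread that may be technical only.

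A cytosolic 60S subunit is built in the nucleolus from ribosomal RNA and many proteins, each present in a single copy apart from the acidic stalk proteins P1 and P2, which bind P0 as pairs and recruit translation factors. In fission yeast most of these proteins are encoded by paralogous copies at separate loci, and the genes are among the most strongly transcribed in growing cells. Their promoters often carry an element known as the HomolD box a short distance before the start, which takes the place of a TATA box, and some carry a second element, the HomolE box. Sin3 proteins are scaffolds of histone deacetylase complexes, and Pst3 is one of the Sin3 homologues of this yeast.

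The promoters of the members the results turn on are shown first. RefSeq annotation on build ASM294v3 was matched to 80 of the 87 probe names, 73 by symbol or synonym and 7 as the only copy of a family left over (rpl17, rpl21, rpl30, rpl34, rpl4, rpl20 and rpl37). The other 7 names (rpl7-3, rpl24-3, rpl13a-1, rpl13a-2, rpl27a, rpl7a and rpl20-1-x2) were not matched. Each sequence below is the 120 bases before the annotated gene start, read 5′ to 3′ on the strand of the gene, with every match to CAGTCACA or its reverse complement TGTGACTG, the core of the HomolD box, in capitals.
The rpl28 pair is shown because both copies were lower on the arrays labelled pst3nmt OFF. The windows are II:3196343-3196462 on the + strand and III:656505-656624 on the + strand.
rpl2801: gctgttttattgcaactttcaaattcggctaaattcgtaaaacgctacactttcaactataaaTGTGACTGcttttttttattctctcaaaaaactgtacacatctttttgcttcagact
rpl2802: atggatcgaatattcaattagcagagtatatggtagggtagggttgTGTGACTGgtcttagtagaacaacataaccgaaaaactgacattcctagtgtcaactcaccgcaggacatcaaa
The rpl21 pair is shown because 1 copy was called in the RNA comparison and the copies differed on the Pst3-GFP arrays. The windows are II:2503781-2503900 on the - strand and I:3400408-3400527 on the + strand.
rpl2101: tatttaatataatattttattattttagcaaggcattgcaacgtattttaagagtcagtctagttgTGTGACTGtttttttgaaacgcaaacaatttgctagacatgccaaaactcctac
rpl2102: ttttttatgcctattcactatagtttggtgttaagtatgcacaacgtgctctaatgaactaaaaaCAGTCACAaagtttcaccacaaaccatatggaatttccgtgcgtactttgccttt
The rpl30 pair is shown because the intergenic probe of 1 copy had the highest ratio among members on the Pst3-GFP arrays. The windows are I:1974084-1974203 on the - strand and I:5095880-5095999 on the - strand.
rpl3001: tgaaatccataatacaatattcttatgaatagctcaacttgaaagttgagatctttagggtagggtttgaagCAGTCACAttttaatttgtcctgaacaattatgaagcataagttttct
rpl3002: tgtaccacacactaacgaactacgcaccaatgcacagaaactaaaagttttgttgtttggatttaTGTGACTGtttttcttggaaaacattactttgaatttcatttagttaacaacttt
The gene rpl35A02 is read by the probe named rpl37-1, the member with the largest positive RNA difference. Its window is II:2405979-2406098 on the - strand.
rpl35A02: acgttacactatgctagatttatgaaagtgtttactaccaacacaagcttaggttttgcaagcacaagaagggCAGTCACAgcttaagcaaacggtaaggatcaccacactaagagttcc
The last 3 promoters have no exact match. All carry the word with a single base changed, at an end in rpl1002 and rpp0 and inside it in rpl3601 (tgtgaccg). They belong to rpl1002 (I:3744026-3744145 on the + strand), rpl3601 (III:506890-507009 on the - strand) and rpp0 (III:1981916-1982035 on the - strand), which are described in the sections on chromatin and on the stalk.
rpl1002: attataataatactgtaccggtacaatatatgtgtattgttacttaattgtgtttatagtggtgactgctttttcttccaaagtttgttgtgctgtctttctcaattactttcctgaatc
rpl3601: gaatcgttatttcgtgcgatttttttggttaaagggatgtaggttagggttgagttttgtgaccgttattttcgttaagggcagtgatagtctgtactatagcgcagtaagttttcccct
rpp0: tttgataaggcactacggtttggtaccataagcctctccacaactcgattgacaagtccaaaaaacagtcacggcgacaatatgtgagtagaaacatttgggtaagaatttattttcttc

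In windows of 300 bases (250 before and 50 after the gene start), CAGTCACA on either strand was present in 52 of 80 member genes (65.0%), against 137 of 5112 genes of the genome (2.68%). This 8-base word was taken because its share in the member windows exceeded its share in all windows by the most. Its count among members is therefore a description of how it was chosen, and the 5112 genes include the members. A single match was found in 49 genes, 2 or more in 3 and none in 28. In 50 of the 52 genes the first match began 40 to 75 bases before the gene start, with a median of 52 bases. A second word, AGGGTAGG or its reverse complement CCTACCCT, part of the HomolE box, was present in 28 of 80 member windows (35.0%), against 1.8% of all windows; AGGGTAGG stands upstream of the capitals in rpl2802 and rpl3001 above. The paralogues are close in coding sequence, with an identity of 66.1 to 99.6% over 38 pairs (median 86.8%) and over 90% in 12 pairs, so a long spotted probe may read both copies of a pair. How far it did was not tested.

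The gene named in the label was examined first. Levels are normalised spot intensities on a log2 scale, and differences were tested with limma, a linear model that shares the error estimate across genes. The pst3 probe had log2 levels of 10.22 and 10.08 on the arrays labelled pst3nmt OFF, against 9.77 to 10.95 (median 10.11) on the 8 wild-type arrays. It differed by -0.06 (SE 0.39, limma adjusted p = 0.953), and this value lay between -0.35 and 0.12 over 25 alternative settings, and none of them called it. The probe thus went against the label, and every direction given here for RNA is one of the arrays labelled pst3nmt OFF against wild type. These 2 arrays were printed in a layout of their own, while wild-type replicates 1 to 5 and 6 to 8 lie on 2 other layouts, so strain and print cannot be told apart. Over all names the correlation was 0.88 between the arrays labelled pst3nmt OFF, 0.60 to 0.95 within wild-type replicates 1 to 5, 0.79 to 0.91 within replicates 6 to 8, and 0.47 to 0.68 between the arrays labelled pst3nmt OFF and wild type. The number of arrays limits the precision. Spots were brightest for these genes: 38 of 75 members reached the scanner's upper range on pst3nmt OFF replicate 2 and 0 on replicate 1, against 36, 14 and 53 on wild-type replicates 6, 7 and 8 and 0 to 5 on replicates 1 to 5, which can compress differences between bright members.

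Few large subunit genes passed the test in the RNA comparison. Of 72 members tested, 4 were lower and 1 was higher on the arrays labelled pst3nmt OFF at a limma adjusted p under 0.05 (Benjamini-Hochberg over 4528 genes). The 4 lower members were rpl7-3, rpl21, rpl28-1 and rpl28-2, and the higher member was rpl37-1. Over all genes, 9.58% were called, 4.75% as higher and 4.84% as lower, so the members' share was near that of the array for lower genes and below it for higher ones. The median log2 difference of the members was -0.08, against -0.02 for all genes tested, and 32 of 72 members had a positive value. This median depends on the scaling: it was -0.49 after median centring (all genes 0.02) and 0.24 after cyclic loess (all genes 0.07). The RNA came from whole cultures, so a lower level in each cell and fewer cells expressing a gene cannot be told apart.

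**Figure D1:**
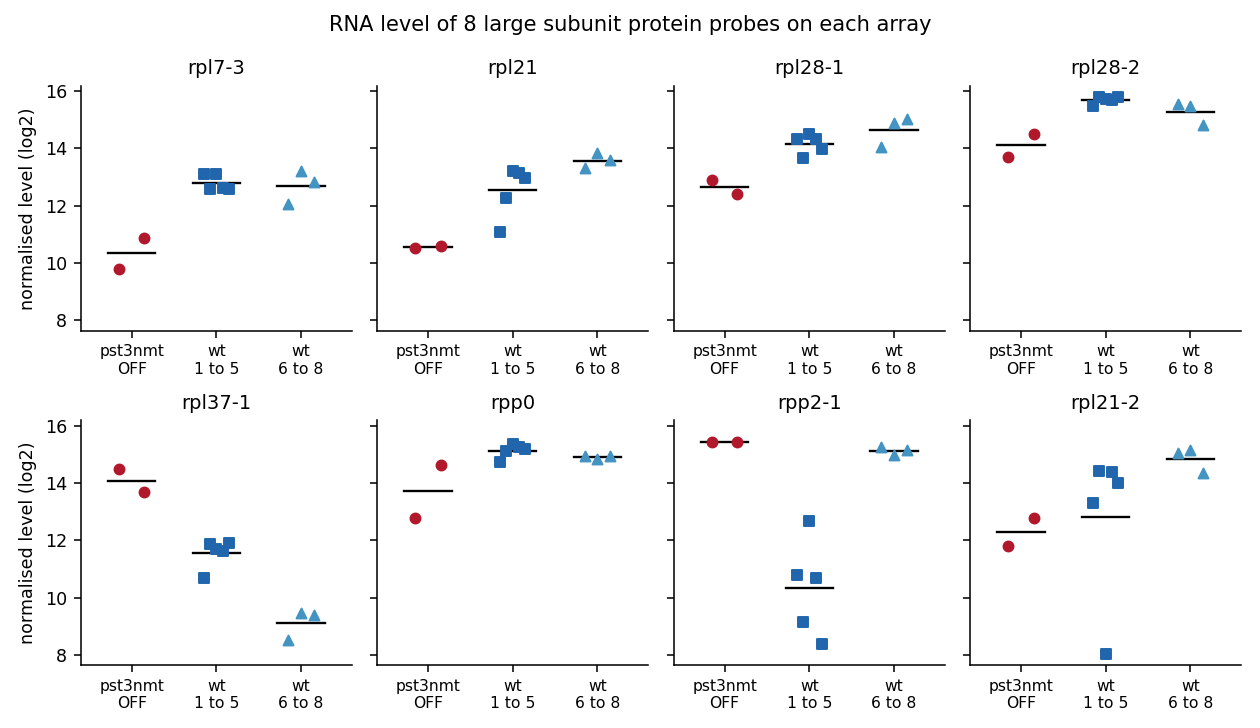
Log2 normalised RNA levels of 8 large subunit members, with 1 point an array, for the 2 arrays labelled pst3nmt OFF and the 8 wild-type arrays, split by print. Both arrays labelled pst3nmt OFF lie below every wild-type array for rpl7-3, rpl21, rpl28-1, rpl28-2 and rpp0, and above every one for rpl37-1 and rpp2-1; horizontal lines are means, and for rpl21-2 a single wild-type array lies at 8.03, far below the rest.

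The probe rpl7-3 had log2 levels of 9.80 and 10.87 on the arrays labelled pst3nmt OFF, against 12.07 to 13.21 (median 12.72) in wild type. The groups did not overlap, and the difference was -2.43 (SE 0.42, limma adjusted p = 0.00455). Rpl7 is a protein of the 60S core with 2 annotated copies besides the assembly factor Rlp7, and the sources do not give which gene the name rpl7-3 stands for, since rlp7 is also listed with rpl7 as a synonym. The call held in 23 alternatives and was lost in 1, without pst3nmt OFF replicate 1 (-1.89). Without rpl7-3 and rpl24-3, the 2 names with such a doubt, 3 members were called lower and 1 higher. Among all 4526 genes then tested, 218 were called lower and 215 higher.

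The rpl28 genes were the only pair of which both copies were called, and both fell. The probe rpl28-1 had log2 levels of 12.88 and 12.42 on the arrays labelled pst3nmt OFF, against 13.67 to 15.03 (median 14.32) in wild type, a difference of -1.69 (SE 0.42, limma adjusted p = 0.0242). The probe rpl28-2 had log2 levels of 13.71 and 14.51 on the arrays labelled pst3nmt OFF, against 14.83 to 15.79 (median 15.62) in wild type, a difference of -1.43 (SE 0.39, limma adjusted p = 0.0368). Neither group overlapped the other for either copy. The probe rpl28-2 reached the scanner's upper range on 6 wild-type arrays and 1 array labelled pst3nmt OFF, and rpl28-1 did so on 1 wild-type array. The call of rpl28-1 was lost without either array labelled pst3nmt OFF, after cyclic loess (-0.95, limma adjusted p = 0.146) and with print fitted as a random block, and that of rpl28-2 was lost in 11 alternatives. Both genes carry the HomolD core, at 57 and 74 bases before the start.

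The probe rpl21 had log2 levels of 10.53 and 10.60 on the arrays labelled pst3nmt OFF, against 11.09 to 13.82 (median 13.18) in wild type. The groups did not overlap, and the difference was -2.36 (SE 0.59, limma adjusted p = 0.0251). Its paralogue rpl21-2 gave 11.79 and 12.79 on the arrays labelled pst3nmt OFF, against 8.03 to 15.15 (median 14.35) in wild type, whose lowest value is a single array, replicate 3. Its difference was -1.29 (SE 1.37, limma adjusted p = 0.612), and with the dim print-tip blocks of replicate 3 (fields of spots laid down by 1 pin) left out, a setting chosen after seeing the data, it was -2.09 (SE 0.50, limma adjusted p = 0.016). The probe rpl21 lies on a printing plate whose likeness between the arrays labelled pst3nmt OFF and wild type was low, and its call was lost in 6 alternatives (limma adjusted p = 0.051 to 0.224).

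The probe rpl37-1, matched to rpl35A02, was the one member that rose. It had log2 levels of 14.47 and 13.68 on the arrays labelled pst3nmt OFF, against 8.54 to 11.89 (median 11.17) in wild type, a difference of 3.43 (SE 0.84, limma adjusted p = 0.0222). All wild-type arrays were lower, and they were not alike: replicates 6 to 8 averaged 9.13 and replicates 1 to 5 averaged 11.56. It lies on the second of the plates of low likeness, and its call was lost in 5 alternatives. When the names of these 2 plates were left out as well, 3 members were called lower and none higher among 70 tested by limma, with 5 at an unadjusted p under 0.05. Over the 4345 genes of that setting, 201 were called lower and 187 higher.

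**Figure D2:**
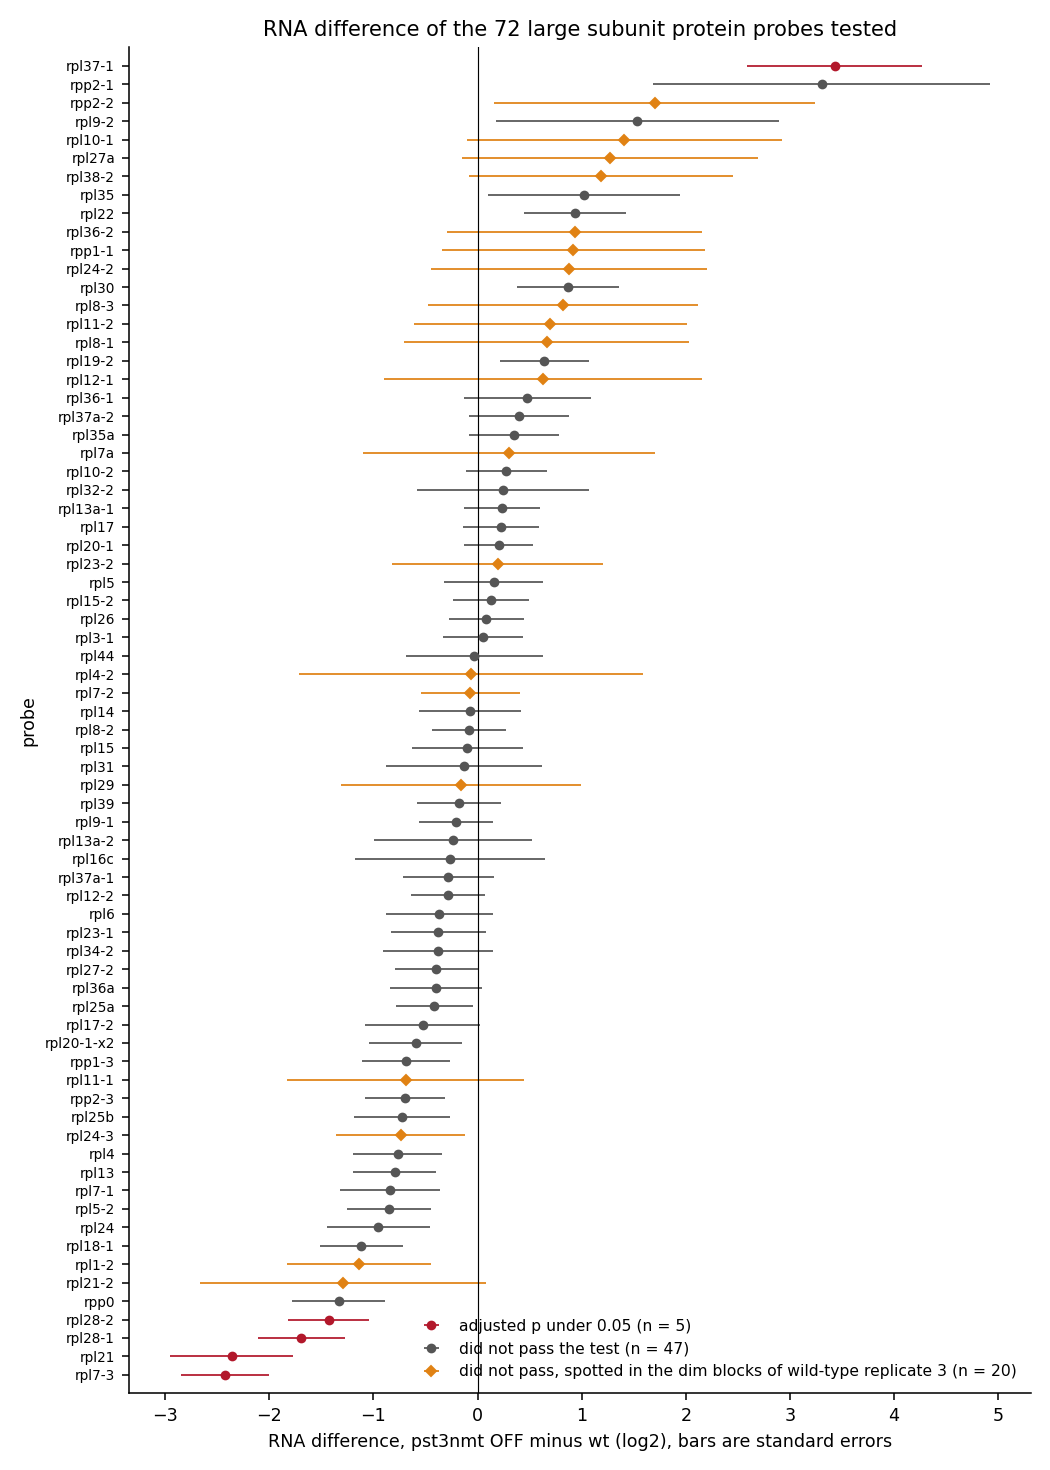
Log2 RNA differences (arrays labelled pst3nmt OFF minus wild type) of the large subunit members tested, with bars of 1 standard error. The 5 called members lie between -2.43 and -1.43 and at 3.43, and the members with the widest bars are largely those in the dim print-tip blocks of wild-type replicate 3.

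No other member was called. The standard error was 0.33 to 1.62 (median 0.44) in the 52 members outside the dim blocks of wild-type replicate 3 and 0.48 to 1.65 (median 1.30) in the 20 members inside them. In those 6 of 32 blocks the median of replicate 3 minus the other wild-type arrays of its print was -1.21 to -2.55 log2 units. The largest uncalled positive values include several such members: rpl10-1 at 1.41 (0.50 with the blocks left out), rpl27a at 1.27 (0.51), rpl38-2 at 1.18 (0.49) and rpp1-1 at 0.92 (0.17). The value of rpl9-2, 1.53 (SE 1.36), was 0.73 without wild-type replicate 1, which gave 7.85 while the other wild-type arrays gave 13.95 to 14.91. Among uncalled members with negative values, rpl18-1 stood at -1.12 (SE 0.40, limma adjusted p = 0.101), and rpl1-2 stood at -1.14 (SE 0.69), or -1.47 (limma adjusted p = 0.048) with the dim blocks left out. With these blocks left out, 6 members were called lower and 1 higher by limma. Over all 4528 genes the same setting called 301 lower and 267 higher, so calls rose across the array.

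Arrays of the 2 groups were fully apart for 10 of 72 members. In 7 of them (9.72%) both arrays labelled pst3nmt OFF lay below all wild-type arrays, against 10.2% of all genes, and in 3 (4.17%) they lay above all of them, against 12.9%. Beside the called members and the stalk genes below, this held for rpl25a and rpl25b, both copies of the protein near the exit of the peptide tunnel. Both lay below wild type, by small differences of -0.41 and -0.73, and neither was called.

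The stalk genes did not move together. P0, encoded by the single gene rpp0, had log2 levels of 12.79 and 14.63 on the arrays labelled pst3nmt OFF, against 14.75 to 15.36 (median 15.03) in wild type, a difference of -1.33 (SE 0.45, limma adjusted p = 0.077). Without pst3nmt OFF replicate 2 the difference was -2.25, while replicate 2 itself, at 14.63, lay just below the lowest wild-type array. The rpp0 probe reached the scanner's upper range on 1 array labelled pst3nmt OFF and 2 wild-type arrays. For P2, rpp2-1 had 15.44 and 15.42 on the arrays labelled pst3nmt OFF, against 8.40 to 15.25 (median 11.73) in wild type, a difference of 3.30 (SE 1.62, limma adjusted p = 0.226). Its wild-type arrays fell apart by print, with replicates 6 to 8 at 14.97 to 15.25 and replicates 1 to 5 at 8.40 to 12.66, and against replicates 1 to 5 alone it was called (5.10, limma adjusted p = 0.010). For rpp2-2, with 15.11 and 15.84 on the arrays labelled pst3nmt OFF, against 7.29 to 15.02 (median 14.69) in wild type, both arrays also lay above all wild-type arrays, and the difference was 1.70 (SE 1.54, limma adjusted p = 0.540), or 0.78 (limma adjusted p = 0.215) with the dim blocks left out. The other 3 members tested were not called, with differences of rpp2-3 -0.70, rpp1-1 0.92 and rpp1-3 -0.69.

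Another 3 members were measured but not tested, because they came from printing plates on which the arrays labelled pst3nmt OFF and wild type had no likeness. Across the names of these 2 plates the correlation of the group means was -0.04 and 0.09, against 0.41 to 0.87 (median 0.76) for the 48 other plates with at least 30 names (3 smaller plates were not judged), while the wild-type prints correlated there at 0.88 and 0.74. On them lie rpl19-1 (11.47 and 11.40 on the arrays labelled pst3nmt OFF, against 14.77 to 15.45 in wild type), rpl32-1 (10.61 and 10.77 against 13.76 to 15.28) and rpp1-2 (9.59 and 8.96 against 13.89 to 14.97). With the plates kept in, these 3 gave limma differences of -3.76, -3.65 and -5.10 and were called; whether their spots hold the named genes on the arrays labelled pst3nmt OFF was not tested.

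Wild-type arrays alone show how far the same genes moved between prints. Between replicates 6 to 8 and 1 to 5, limma called 4 of 75 members, against 10.8% of 4716 names. The probe rpp2-1 was higher by 4.79, rpl35 by 2.38 (14.79 in replicates 6 to 8 and 12.41 in replicates 1 to 5) and rpl36-1 by 1.43 (15.08 and 13.66), and rpl37-1 was lower (-2.43). The members' median between these prints was 0.49, or 0.21 after median centring and 0.20 with the dim blocks left out; the medians of the arrays labelled pst3nmt OFF against wild type in the same 3 settings were -0.08, -0.49 and -0.22.

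Whether the copies of a family moved by different amounts was tested with the log2 difference between 2 probes on each array, by an exact two-sided permutation test over the 45 ways of choosing 2 of 10 arrays, which can give no p below 0.0222. Of 30 pairs in 22 families, 4 reached 0.05 or less, and p-values were not adjusted over the pairs. Pairs with an unmatched name, such as rpl20-1 and rpl20-1-x2, were included, and whether these are paralogues was not tested. In 7 pairs the groups did not overlap. Among all single genes tested, both arrays labelled pst3nmt OFF lay below all wild-type arrays in 10.2% and above them in 12.9%. The share over pairs of other genes was not computed, so the count of pairs is not read as a trait of this family. For rpl11, a protein of the complex around the 5S ribosomal RNA, rpl11-1 minus rpl11-2 was -2.20 and -1.44 on the arrays labelled pst3nmt OFF, against -1.42 to 0.38 (median -0.43) in wild type, a change of -1.39 (exact permutation p = 0.0222); after median centring it was -0.85 (exact permutation p = 0.156). Neither rpl11 copy was called by itself.

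The rpl7 probes gave 2 of the 4 pairs, and both involve rpl7-3. The difference rpl7-1 minus rpl7-3 was 2.92 and 3.43 on the arrays labelled pst3nmt OFF, against 0.87 to 2.27 (median 1.72) in wild type, and rpl7-2 minus rpl7-3 was 4.85 and 3.90, against 0.34 to 3.22 (median 2.15). The changes were 1.58 and 2.36 (exact permutation p = 0.0222 each). The fourth pair was rpp2-1 minus rpp2-3, at 2.40 and 1.83 on the arrays labelled pst3nmt OFF, against -5.48 to 1.22 (median -2.25) in wild type, a change of 4.0 (exact permutation p = 0.0444) in a pair whose wild-type values also differed by print. This p was above 0.05 in 13 of 14 alternatives (0.0556 to 0.333); in the other, against wild-type replicates 1 to 5 alone, it was 0.0476.

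Other pairs with a single called copy did not reach 0.05. The difference rpl35a minus rpl37-1, the 2 copies of rpl35A, was -0.59 and 0.22 on the arrays labelled pst3nmt OFF, against 1.19 to 5.84 (median 2.37) in wild type, a change of -3.08 (exact permutation p = 0.0667). For rpl21 minus rpl21-2 the change was -1.07 (exact permutation p = 0.444), and -0.24 without wild-type replicate 3. The rpl28 copies, both called, differed by -0.82 and -2.10 on the arrays labelled pst3nmt OFF, against -2.12 to 0.20 (median -1.32) in wild type, a change of -0.26 (exact permutation p = 0.711). For rpl10-1 and rpl10-2, whose coding sequences are 97.9% identical, the change was 1.14 (exact permutation p = 0.467), and 0.26 without wild-type replicate 3.

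The other named pairs were those whose copies differed by at least 1 in their change. These were rpl5 minus rpl5-2 (1.0), rpl9-1 minus rpl9-2 (-1.75), rpl24 minus rpl24-2 (-1.83), rpl24-2 minus rpl24-3 (1.62), rpp1-1 minus rpp1-3 (1.61), rpp2-1 minus rpp2-2 (1.60) and rpp2-2 minus rpp2-3 (2.40), with exact permutation p-values over 0.05. Without wild-type replicate 3, the change of rpp2-2 minus rpp2-3 was 1.42 with an exact permutation p of 0.0278, the smallest possible there.

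**Figure D3:**
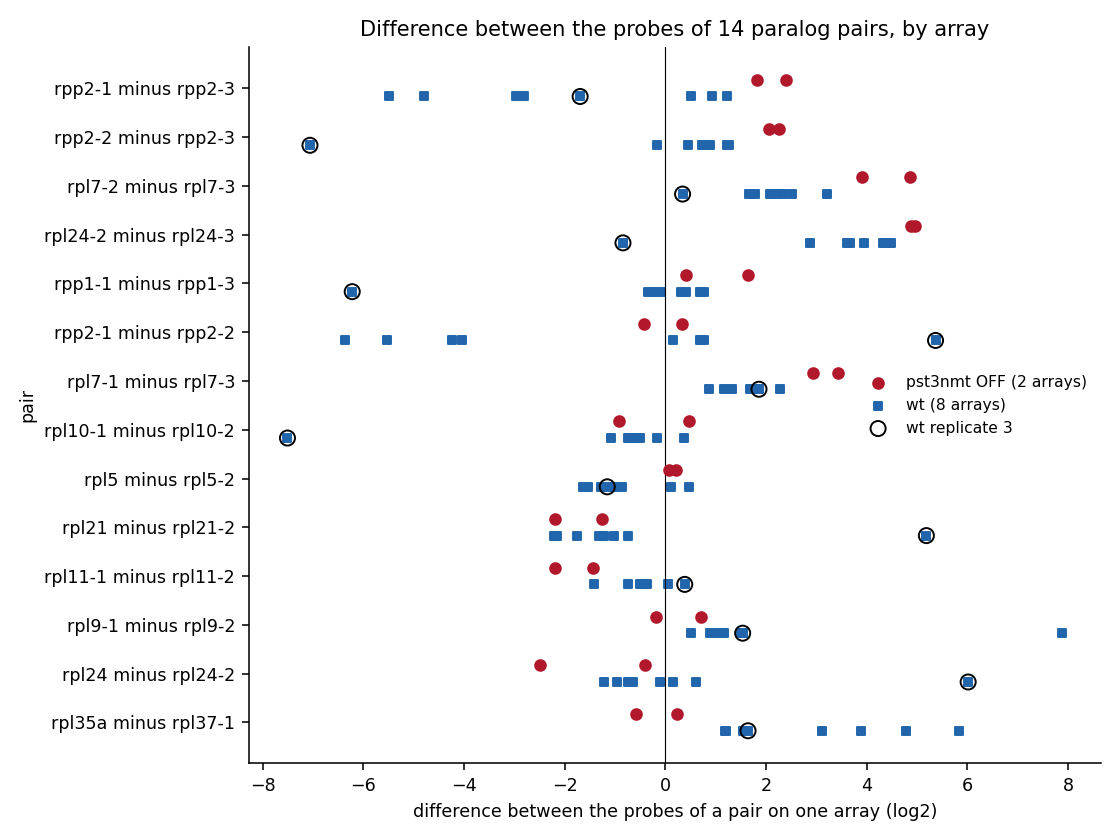
Log2 difference between the 2 copies of 14 paralogue pairs, with 1 point an array, for the 2 arrays labelled pst3nmt OFF and the 8 wild-type arrays. The groups are apart for rpl11-1 and rpl11-2, for both rpl7 pairs with rpl7-3, for rpl24-2 and rpl24-3, for rpl35a and rpl37-1, for rpp2-1 and rpp2-3 and for rpp2-2 and rpp2-3; circles mark wild-type replicate 3, which lies far from the others in several pairs.

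Genes listed as acting with the large subunit proteins were described by the same fit. The lists were matched to probes by gene name, and the role of each listed gene in fission yeast was not checked. Of 45 factors of 60S assembly tested, 10 fell and none rose on the arrays labelled pst3nmt OFF, with a median of -0.61 against -0.02 for all genes, of which 4.84% were called lower. The lowest were rrp14 (-2.79, limma adjusted p = 0.00465), brx1 (-2.37), ebp2 (-2.29), mrt4 (-1.97), a homologue of P0 that holds its place during assembly, and nop12 (-1.90). Of 11 genes listed as chaperones or methyltransferases of large subunit proteins, 2 rose, while 4.75% of all genes were called higher. The 2 were the probe named btf3 (2.20), a subunit of the complex that binds nascent chains, and bcp1 (1.30), in budding yeast the chaperone of Rpl23. None of 5 elongation factors or 15 regulators of ribosomal protein gene transcription was called by limma at an adjusted p under 0.05. Of 51 small subunit proteins, 4 fell, against 4.84% of all genes, and none rose (median -0.23), among them rps19-1 (-3.99) and rps10-1 (-2.14).

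Values of members with and without an exact match to CAGTCACA on either strand were set side by side. A gene without an exact match may still carry a near match, as rpp0 does, so this is not a split by presence of the HomolD box. The median RNA difference was -0.13 in the 40 tested members whose gene has a match and -0.06 in the 25 whose gene has none. Of the 5 called members, rpl21, rpl28-1, rpl28-2 and rpl37-1 have a match, and rpl7-3 has no matched gene.

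On the Pst3-GFP arrays, values are log2 ratios of the deposited signal over the authors' reference intensity of the same intergenic region, centred on the median of the array. The labels swap the dyes between the arrays and do not say which channel was deposited, so a ratio above or below 0 is not read as binding of Pst3-GFP or as its lack. The name of a region is that of a neighbouring gene, and where it lies relative to that gene is not stated. Between the arrays the correlation was 0.46 over the 82 members and 0.21 over all 4940 regions. The members' median was -0.07, against -0.05 for all regions.

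Of 82 members, limma called 2 at an adjusted p under 0.05, rpl30 above and rpl36-1 below the reference, against 1.72% of all regions. The limma standard error was the same, 0.84, for every member. The p-value therefore follows the mean alone and does not measure how alike the 2 arrays were for a region. The region of rpl30 had log2 ratios of 3.52 and 4.27 (mean 3.90, SE 0.84, limma adjusted p = 0.00156), both far above 0. Its signals were 421 and 1494, the second close to its background of 1358, and its reference intensity of 29.3 was the lowest among members. Rpl30 is a small 60S protein that in budding yeast also binds its own transcript. The region of rpl36-1 had log2 ratios of -7.37 and -0.91 (mean -4.14, SE 0.84, limma adjusted p = 0.000501), which share a sign and differ by far in size. On the first array its signal of 17.3 was near its background of 14.8, and on the second it was 3227 over 1454, with a reference of 2297.

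**Figure D4:**
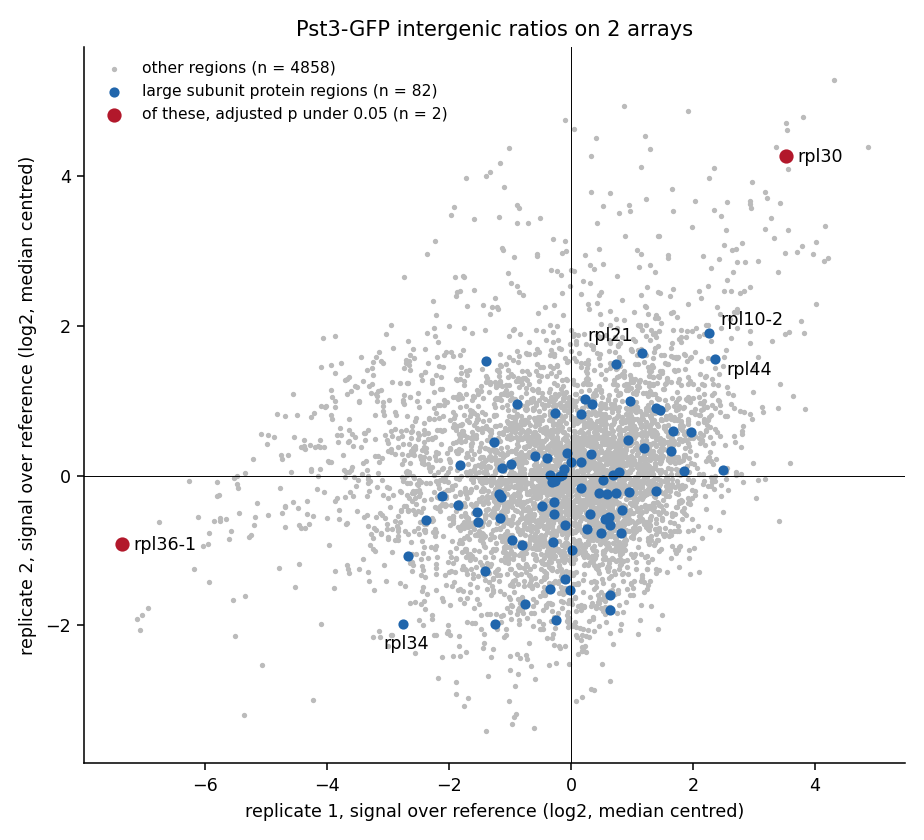
Log2 ratio of the deposited signal over the authors' reference on Pst3-GFP array 1 against array 2, for all intergenic regions and for those of large subunit members. The region of rpl30 stands at 3.52 and 4.27 and that of rpl36-1 at -7.37 and -0.91, and regions of other genes lie near both.

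Other members followed at smaller sizes and were not called. The region of rpl10-2, a copy of the protein that completes the subunit late in the cytoplasm, had ratios of 2.26 and 1.91 (mean 2.08, limma adjusted p = 0.292). That of rpl44 had 2.36 and 1.56 (mean 1.96), and that of rpl21 had 1.16 and 1.64 (mean 1.40). At the low end, rpl34 had -2.75 and -1.98 (mean -2.37, limma adjusted p = 0.163), rpl32-2 had -2.68 and -1.07 (mean -1.88) and rpp1-1 had -1.25 and -1.98 (mean -1.62). Both arrays were at least 2-fold above the reference in 4 of 82 members (4.88%), against 5.49% of all regions, and at least 2-fold below it in 4 (4.88%), against 4.31%. The stalk regions ran from -1.62 for rpp1-1 to 1.13 for rpp2-3, with rpp2-2 (-0.07), rpp1-3 (0.03) and rpp0 (0.03) at the middle and of unlike sign on the arrays.

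Regions of paralogues were also compared. Of 39 pairs in 31 families, 7 were at least 2-fold apart in the same direction on both arrays. The share among pairs of other regions was not computed. The difference of rpl30 minus rpl30-2 was 5.06 and 4.76, and that of rpl34 minus rpl34-2 was -5.23 and -2.05. For rpl21 minus rpl21-2 it averaged 2.24, and for rpl28-1 minus rpl28-2 it was 1.43 and 1.88. Among those apart on both arrays, the other 3 were rpl13a-1 and rpl13a-2 (mean difference -1.98), rpl10-1 and rpl10-2 (-1.89) and rpp1-1 and rpp1-3 (-1.64). In each of these 7 pairs the copy with the higher ratio had the lower reference intensity. The references were 29.3 and 937 for rpl30 and rpl30-2, 2634 and 730 for rpl34 and rpl34-2, and 2787 and 168 for rpl10-1 and rpl10-2. The part of the reference in these differences was not tested. The mean difference of rpl36-1 minus rpl36-2 was the largest in size at -5.10, with -9.22 on the first array and -0.98 on the second. In all, 20 of the 39 pairs had a mean difference of at least 1 in size. Members whose gene has an exact match to CAGTCACA had a median ratio of -0.09 (n = 50), as had those whose gene has none (n = 27).

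The ratios moved with the reference they were divided by. Across the 82 members the correlation of the Pst3-GFP ratio with the log2 reference intensity was -0.74, and it was -0.58 across all regions; these points share the reference and the slides. After loess against the reference no region was called by limma (320 at an unadjusted p under 0.05), and rpl30 stood at 1.04 (limma adjusted p = 0.79). After background subtraction none was called either (288 at an unadjusted p under 0.05), and rpl30 stood at 1.57. The call of rpl36-1 was lost in these 2 settings and on either spot set alone, and that of rpl30 on the second spot set (4.04, limma adjusted p = 0.224).

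**Figure D5:**
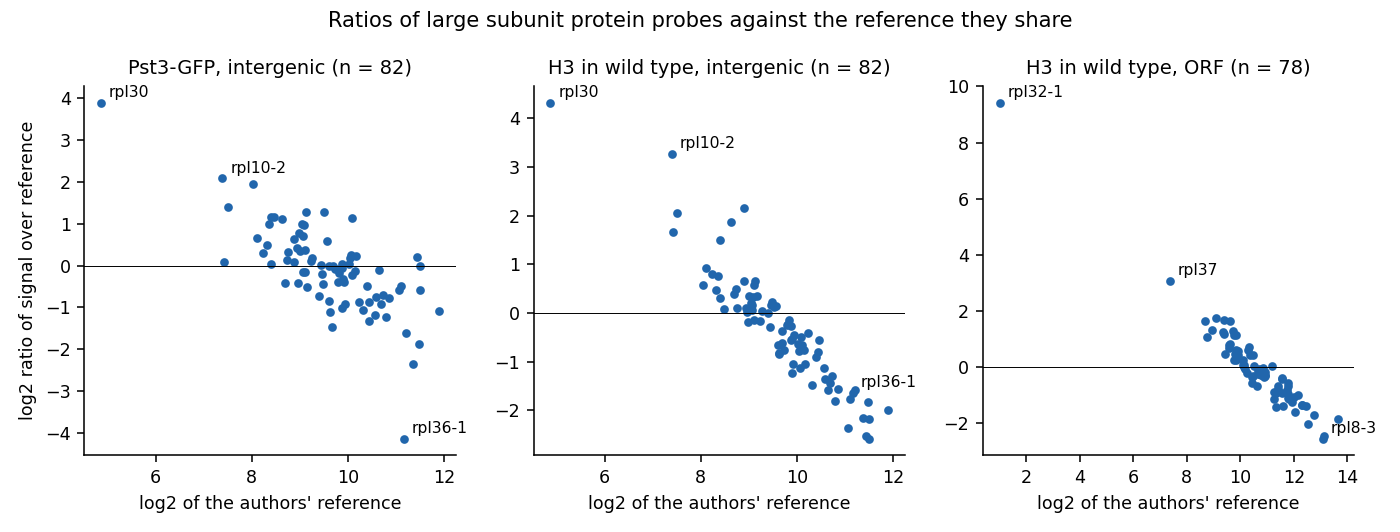
Log2 ratio over the authors' reference against the log2 reference intensity for the large subunit members, on the Pst3-GFP intergenic arrays and the wild-type H3 arrays. The ratio falls with the reference in each panel, with correlations of -0.74 (Pst3-GFP, 82 members), -0.93 (H3, 82 intergenic members) and -0.97 (H3, 78 ORF members).

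Histone H3 was measured on 1 wild-type array for each probe set, so its values have no replicate check. The signals of the 82 intergenic members ran from 619 to 3449 (median 1030), with local backgrounds of 323 to 1280, and those of the 78 ORF members ran from 638 to 2472. The highest intergenic signals were those of rpl16c (3449), rpl10-2 (2678) and rpl13a-2 (2461). Taken over the reference, the members' median log2 ratio was -0.28 on intergenic probes and -0.20 on ORF probes, at the 39.3 and 41.4 percentiles of all probes. As with Pst3-GFP, which of the 2 channels was deposited is not given.

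The H3 ratios ran against the reference, with correlations of -0.93 on intergenic and -0.97 on ORF probes. The highest intergenic ratios were those of rpl30 (4.32), rpl10-2 (3.27), rpl16c (2.16), rpl21 (2.05) and rpl13a-2 (1.87), and the lowest were rpl41-2 (-2.58), rpl10-1 (-2.51), rpl31 (-2.36), rpl7-2 (-2.17) and rpl34 (-2.15). On ORF probes rpl32-1 stood at 9.42, with a signal of 972 below its background of 990 and a reference of 2.0. It was followed by rpl37 (3.05), rpl31 (1.74), rpp1-1 (1.69) and rpl21-2 (1.64), and the lowest were rpl8-3 (-2.56), rpl8-2 (-2.45), rpl28-2 (-2.04), rpl8-1 (-1.85) and rpl3-1 (-1.72). The 3 rpl8 copies, which encode a protein at the peptidyl transferase centre, had references of 8613 to 12663. ORF and intergenic ratios of the same member had no common order (r = -0.01 over 73 members, of which 40 had the higher value on the ORF probe).

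The region of rpl30 was highest by ratio on both the Pst3-GFP and the H3 arrays, and the 2 ratios correlated at 0.69 across 82 members. They share the reference. The log2 signals themselves correlated at -0.01 and 0.09 between H3 and each Pst3-GFP array, and at 0.30 between the Pst3-GFP arrays.

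For hst2D and hst4D, no difference between strains was drawn. The 2 deposited files of a sample correlated at 0.18 and 0.22 on intergenic probes and at 0.33 and 0.31 on ORF probes, against 0.80 for the files of wild type. Files of the different hst strains correlated at up to 0.60 on intergenic and 0.76 on ORF probes, so whether the 2 files hold spot sets or channels is not settled. Their median signals were 597 to 746, with backgrounds of 497 to 636. The region of rpl30 had intergenic ratios of 4.68 and 4.55 on the hst2D files and 4.95 and 4.98 on the hst4D files, against 4.34 and 4.30 on the wild-type files. It was the highest member on each of these files apart from the second of hst2D, where rpl25b stood at 4.74.

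The slide of Pst3-GFP against beads gave 2 samples with the same slide code, and its direction is not known, so only sizes are given. The median signals were 151 and 1028 on intergenic probes, against backgrounds of 121 and 1066. On ORF probes the samples differed by at least 2-fold in 41 of 78 members (52.6%), against 35.7% of all probes, and on intergenic probes in 24 of 82 (29.3%), against 25.1%. With background subtracted the members' shares lay below those of all probes, at 79.5% against 84.4% on ORF probes and 76.8% against 80.6% on intergenic ones. The largest ORF values were those of the rpl28 pair, with a log2 difference of 7.22 for rpl28-2 (signals of 37842 and 1283) and 6.15 for rpl28-1 (13467 and 966), followed by rpl19-1 (4.60) and rpp0 (4.42). On intergenic probes rpl17-2 (4.88), rpl41-1 (4.85), rpl28-2 (4.80) and rpp1-1 (4.25) came first. These are values of 1 slide.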

How the data were processed

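Spot intensities were analysed as deposited: per the file headers, each file holds the median signal and local background intensity of 1 channel and spot set, and for chromatin arrays the authors' reference intensity of each probe. Array and scanner processing beyond the protocols named in the labels was not given in the sources used here. RNA intensities were background corrected (normexp, offset 50; 50 added to the signal where at least 90% of backgrounds were deposited as 0), log2 transformed, averaged over spots and spot sets, quantile normalised over names and averaged over channels. Groups were compared with limma 3.58.1 in R 4.3.3, with Benjamini-Hochberg adjustment over all genes and a threshold of 0.05. Names of 2 plates were left out of this test by a correlation under 0.2. Chromatin log2 ratios were signal over reference, centred on the median, and limma tested the mean of 2 arrays against 0. All members called, the extremes of each comparison, the stalk genes and pairs whose RNA differences differed by at least 1 (log2) were named; of intergenic pairs, those 2-fold apart on both arrays. The members and lists were chosen with earlier results of these data known. The test of hst strains was dropped, as their files could not be assigned to channels.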

Additional observations from a re-analysis of the deposited data

Results flagged for a closer look

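Single wild-type arrays stood apart from the other 7 for several named members by a test of the gap to the nearest array over the whole range. Such a gap occurs by chance in about 1 in 20 groups. Here 28 of 75 members had an array apart, and in 19 of them it was replicate 3, all in its dim print-tip blocks. Those blocks hold 894 of the 4716 names on all arrays. The share over all names was not computed, so the count is not read as a trait of these members. In replicate 3 the log2 levels were 8.03 for rpl21-2, 8.83 for rpl1-2, 8.12 for rpp1-1, 7.38 for rpl38-2, 7.61 for rpl27a, 7.45 for rpl10-1 and 7.29 for rpp2-2. In replicate 1 rpl9-2 stood at 7.85, and in replicate 8 rpl28-2 stood at 14.83, below the other wild-type arrays.

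Differences between paralogues carried the same arrays. In replicate 3 they were -7.51 for rpl10-1 minus rpl10-2, 5.18 for rpl21 minus rpl21-2, 6.01 for rpl24 minus rpl24-2, -0.84 for rpl24-2 minus rpl24-3, -6.22 for rpp1-1 minus rpp1-3 and -7.06 for rpp2-2 minus rpp2-3. In replicate 1 rpl9-1 minus rpl9-2 was 7.88. The part of the dim blocks and of the print in these values was not tested.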

How the results depend on the processing

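Against 434 genes and 5 members called in RNA, median centring gave 192 and 2, the print as a random block 152 and 2, wild-type replicates 1 to 5 alone 719 and 8, and replicates 6 to 8 alone 827 genes. Members called were 2 with background subtracted (306 genes), 2 with cyclic loess (384 genes) and 8 with the 2 plates kept in (517 genes). They were 3 of the 18 members left without saturated genes (414 of 4348 genes), and 3 without the next 2 plates (388 of 4345 genes). Leaving out 1 array gave 42 to 542 genes and 0 to 6 members; without pst3nmt OFF replicate 1 it was 42 and 0, and without replicate 2 it was 83 and 2. Between wild-type prints, against 507 names and 4 members, median centring gave 237 and 2, and the dim blocks left out gave 722 and 7. There, leaving out 1 array gave 148 (replicate 8) to 715 names and 2 to 7 members. The 4 paralogue pairs became 1 with median centring and 0 with replicates 6 to 8 alone (where p cannot fall below 0.1), and leaving out 1 array gave 0 to 4; without either array labelled pst3nmt OFF p cannot fall below 0.111, so the 0 there shows nothing. With replicates 6 to 8 alone, rpl38-2 was -0.035, rpl10-1 minus rpl10-2 -0.12 and rpp2-1 minus rpp2-2 -0.58, signs opposite to the full set. On Pst3-GFP arrays, against 85 regions and 2 members, normexp called 707 and 11, the dimmest 25% left out 227 and 5, the first spot set 33 and 1, and subtraction, loess and the second spot set 0 and 0 (288, 320 and 418 regions at an unadjusted limma p under 0.05). Signs turned for rpp0 (normexp -0.37, subtraction -0.25), rpp1-3 (normexp -0.061, second spot set -0.029) and rpp2-2 (normexp 0.0084, subtraction 0.49, loess 0.21). The H3 median was -1.01 (subtraction) and -0.34 (second spot set) on intergenic and -0.26 and -0.25 on ORF probes; 2-fold members of the beads slide were 63 (76.8%, all regions 80.6%) on intergenic and 62 (79.5%, all probes 84.4%) on ORF probes with subtraction. The cause was not tested. No paired analysis was possible because replicate numbers follow accession order and pair no arrays. The authors' value table, whose rows could not be named, and the second intergenic spot set of the beads slide, deposited as a duplicate of the first, were not run. Dim blocks, the next 2 plates and the 2 doubtful names were chosen after seeing the data.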
